A study of Mus musculus with 4 samples.

Results

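Immediate early genes are the first genes that cells transcribe after a stimulus, and 10 of them were followed here on mouse arrays labelled retina: Fos, Fosb, Jun, Junb, Egr1, Egr3, Nr4a1, Ier2, Dusp1 and Btg2. They were measured by all probe sets whose platform annotation names exactly 1 gene and whose gene is one of the 10. That gave 13 probe sets of the 45101 on the array, since Jun, Egr3 and Btg2 have 2 each and the other genes 1 each. Those 10 genes are among 18193 genes that have such a probe set. The 2 transgenic arrays came from myocilin transgenic mice. Their aqueous humor carried myocilin, a glycoprotein that eye cells secrete. The 2 control arrays came from control animals, and the second is labelled a technical replicate, so both count as 1 control sample. Strain, age, sex and the promoter of the transgene are not in the labels, nor whether the transgenic arrays represent separate animals. The p-values and intervals of the reported fit rest on the spread between the 2 transgenic arrays, which may be technical, shared across probe sets. The difference between the 2 control arrays does not enter them.

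Stimuli such as growth factors, stretch, light and injury act through MAP kinases and cyclic AMP on transcription factors that already sit at these promoters, so that the genes respond without new protein synthesis. Their mRNAs decay fast, and several of the products, Dusp1 among them, shut the response down again.

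The promoters are shown because their short elements are what these genes are known for. RefSeq promoters (build GRCm38.p6) are given for 7 of the genes: Fos, Fosb, Jun, Junb, Nr4a1, Dusp1 and Btg2. Those of Egr1, Egr3 and Ier2 are not reported here. In the 250 bases before the start, both strands were searched. The cyclic AMP response element TGACGTCA occurred before Dusp1 and Btg2, against 1.55% of 32851 promoters of the same length. The shorter TGACG, which the full element contains, occurred before 6 of the 7, all but Jun, against 17.8% of all. The Jun promoter held TGACATCA, an element of this promoter that Jun and ATF proteins are known to bind, against 2.93% of all. The EGR element GCGNGGGCG was found before Fosb, Nr4a1 and Btg2, against 4.7% of all. The AP-1 element TGAGTCA and the CArG box of serum response factor were in none of the 7 windows. They were rare in all promoters too, at 4.46% and 1.47%. These windows end at 250 bases and leave out Egr1, so elements farther upstream or before Egr1 are not covered. These matches are letters in a window and not shown sites of binding. The stretches below run 5′ to 3′ on the gene's strand, with the named elements, and for Fos also TATAAA, in capitals.
Jun, chr4:95052228-95052297, minus strand: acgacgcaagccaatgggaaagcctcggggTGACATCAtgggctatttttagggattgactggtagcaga
Fos, chr12:85473731-85473889, plus strand: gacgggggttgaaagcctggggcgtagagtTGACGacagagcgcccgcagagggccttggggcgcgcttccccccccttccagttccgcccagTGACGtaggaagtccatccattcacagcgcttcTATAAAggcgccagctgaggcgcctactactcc
Dusp1, chr17:26508576-26508645, minus strand: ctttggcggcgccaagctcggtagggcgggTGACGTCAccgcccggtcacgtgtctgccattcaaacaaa
Btg2, chr1:134079282-134079351, minus strand: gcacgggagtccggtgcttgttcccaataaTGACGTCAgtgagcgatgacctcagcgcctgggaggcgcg

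All values are signal intensities on the arrays' linear scale, where every array had a trimmed mean of 150. Changes are differences of log2(signal + 16), transgenic minus control, tested with limma, a linear model that shares the estimate of spread across probe sets. Of the 10 genes, 8 with 10 probe sets were bright enough to be tested among 27022 probe sets. Fosb and both probe sets of Egr3 were too dim. At an adjusted p of 0.05 over all probe sets tested, 0 of the 10 passed, where 0.0777% of all did. At an unadjusted p under 0.05 there were 2 of 10, one of Jun and that of Egr1, against 7.06% of all. Both transgenic arrays lay above both control arrays for 4 of the 10, against 21.1% of all, and below both for 1 of the 10, against 23.6% of all. Over the 8 tested genes, each by its brightest probe set, the median change was 0.11, against -0.02 over all probe sets tested. It was 0.022 against control array 1 alone and 0.027 against control array 2 alone, so its size rests on averaging the control arrays.

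**Figure D1:**
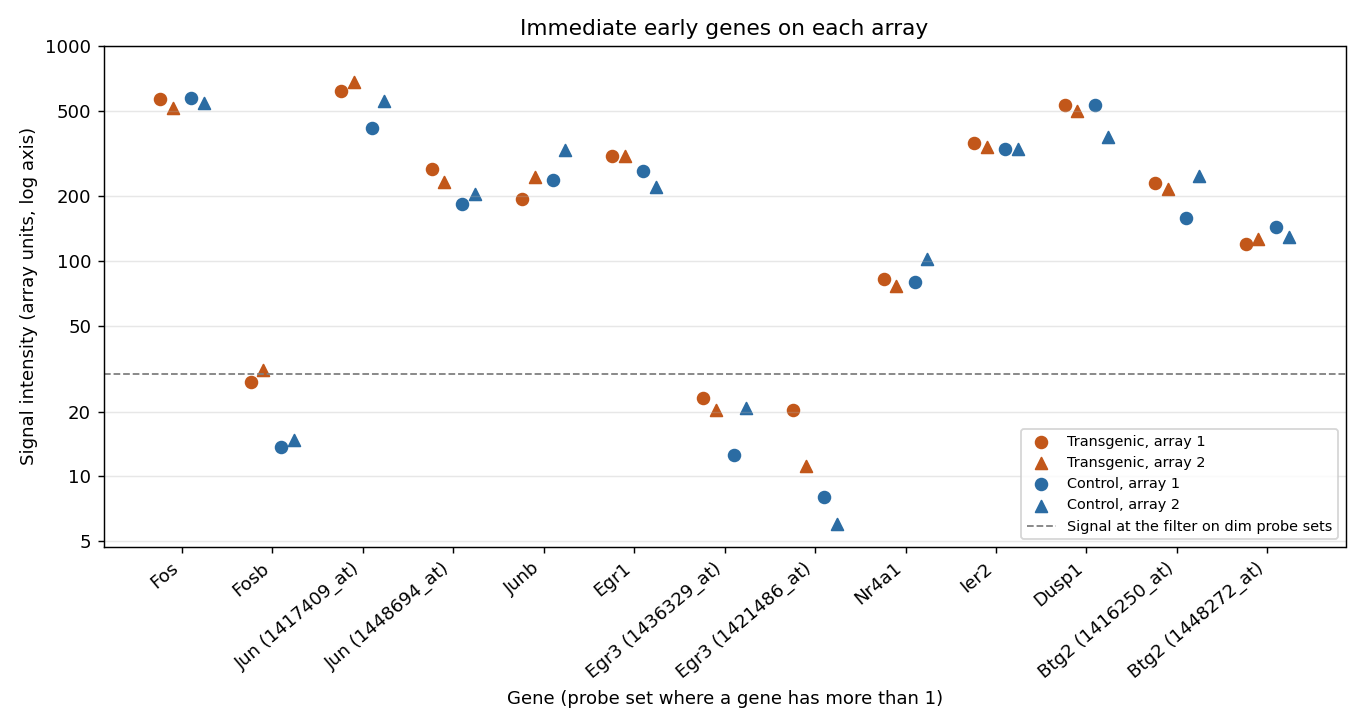
Signal intensity (log axis) of the 13 probe sets of the 10 genes on the 2 transgenic arrays (orange) and the 2 control arrays (blue), with circles for array 1 and triangles for array 2 of each pair. The dashed line is the signal at the filter on dim probe sets, 30.0; Fosb and Egr3 lie around or below it, Jun and Egr1 are higher on both transgenic arrays, and the control points of Btg2 (1416250_at) and Dusp1 lie far apart.

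Jun, the bZIP protein that pairs with Fos proteins to form the AP-1 transcription factor, had the largest change of the tested members. Its brighter probe set, 1417409_at, had signals of 617 and 683 on the transgenic arrays, against 415 and 558 on the control arrays. The groups did not overlap, but the control arrays lay further apart than the transgenic ones and the gap between the groups was narrower than that within the control pair. The change was 0.42 ± 0.13 (log2, SE), with a 95% interval from 0.14 to 0.70 and a limma adjusted p of 0.468. Against control array 1 alone it was 0.63 and against control array 2 alone 0.21. The second probe set, 1448694_at, gave 269 and 233 on the transgenic arrays, against 185 and 206 on the control arrays, again without overlap. Its change was 0.34 ± 0.17 (adjusted p = 0.766 in limma), with an interval from -0.04 to 0.71. Both probe sets report the same gene on the same arrays and are not independent.

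Junb, a second Jun protein with a weaker capacity to activate transcription, stood on the other side of 0. It had signals of 194 and 247 on the transgenic arrays, against 238 and 327 on the control arrays. The groups overlapped, since the second transgenic array exceeded the first control array. The change was -0.33 ± 0.18 (log2, SE; interval -0.73 to 0.07), with a limma adjusted p of 0.788. It was -0.11 against control array 1 alone and -0.55 against control array 2 alone.

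Fos, the partner of Jun in AP-1 and the gene most used as a marker of recent stimulation, had signals of 568 and 513 on the transgenic arrays, against 570.4 and 545 on the control arrays. The arrays of the groups overlapped and differed little in either pair. The change was -0.05 ± 0.13 (log2, SE), and the 95% interval from -0.34 to 0.24 covers changes from 0.793-fold to 1.18-fold. Fosb, a close relative of Fos, was dim on every array. Its signals were 27.4 and 31.3 on the transgenic arrays, against 13.6 and 14.7 on the control arrays, without overlap. The ratio of mean signals was 2.07, yet only 1 of these 4 signals exceeded the filter level of 30.0, so Fosb was not part of the test. With no filter on dim probe sets, its change of 0.59 had a limma adjusted p of 0.999, and the size ran from 0.26 to 1.00 with the pseudocount.

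Egr1, a zinc finger transcription factor that SRF and its cofactors switch on, was higher on both transgenic arrays. It had signals of 309 and 307 on the transgenic arrays, against 263 and 219.9 on the control arrays. The transgenic arrays nearly coincided, the control arrays did not, and the groups stayed apart. The change was 0.34 ± 0.15 (log2, SE; interval 0.00 to 0.67), which did not pass in limma (adjusted p = 0.703). It was 0.22 against control array 1 alone and 0.46 against control array 2 alone. Egr3, a relative that muscle spindles need to form, was at the bottom of the scale. Probe set 1436329_at gave 23.0 and 20.4 on the transgenic arrays, against 12.6 and 20.8 on the control arrays, and these overlapped. Probe set 1421486_at gave 20.3 and 11.1 on the transgenic arrays, against 8.01 and 5.97 on the control arrays. All 8 Egr3 signals were under the filter level, and no change is read from them.

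Nr4a1, an orphan nuclear receptor also called Nur77, was the dimmest of the tested members. Its signals were 82.9 and 76.3 on the transgenic arrays, against 80.4 and 102.6 on the control arrays. Only the second control array stood apart. The change was -0.16 ± 0.25 (log2, SE), with an interval from -0.70 to 0.38 and a limma adjusted p of 0.960. Ier2, a nuclear protein of the early response, was the most even of the members, with 356 and 340.1 on the transgenic arrays, against 334 and 331 on the control arrays. Its arrays did not overlap, although the gap between the groups, 340.1 against 334, was small. The change was 0.06 ± 0.14 (adjusted p = 0.977 in limma, interval -0.25 to 0.38).

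Dusp1, the phosphatase that switches off p38, JNK and ERK kinases, had signals of 533 and 499 on the transgenic arrays, against 533 and 376 on the control arrays. The first control array matched the transgenic arrays and the second was lower than all others. The change was 0.20 ± 0.13 (log2, SE; limma adjusted p = 0.839), with an interval from -0.09 to 0.49. Its sign depended on the control array: -0.04 against the first and 0.44 against the second. Btg2, an antiproliferative protein that p53 induces and that recruits the machinery for mRNA deadenylation, had 2 probe sets of opposite sign. Probe set 1416250_at gave 231 and 217 on the transgenic arrays, against 159 and 248 on the control arrays, which lay on either side of the transgenic pair. Its change was 0.15 ± 0.17 (adjusted p = 0.932 in limma), with 0.45 against control array 1 alone and -0.14 against control array 2 alone. Probe set 1448272_at gave 121 and 127 on the transgenic arrays, against 144 and 129 on the control arrays, with both transgenic signals lower. Its change of -0.13 ± 0.21 had a limma adjusted p of 0.963.

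**Figure D2:**
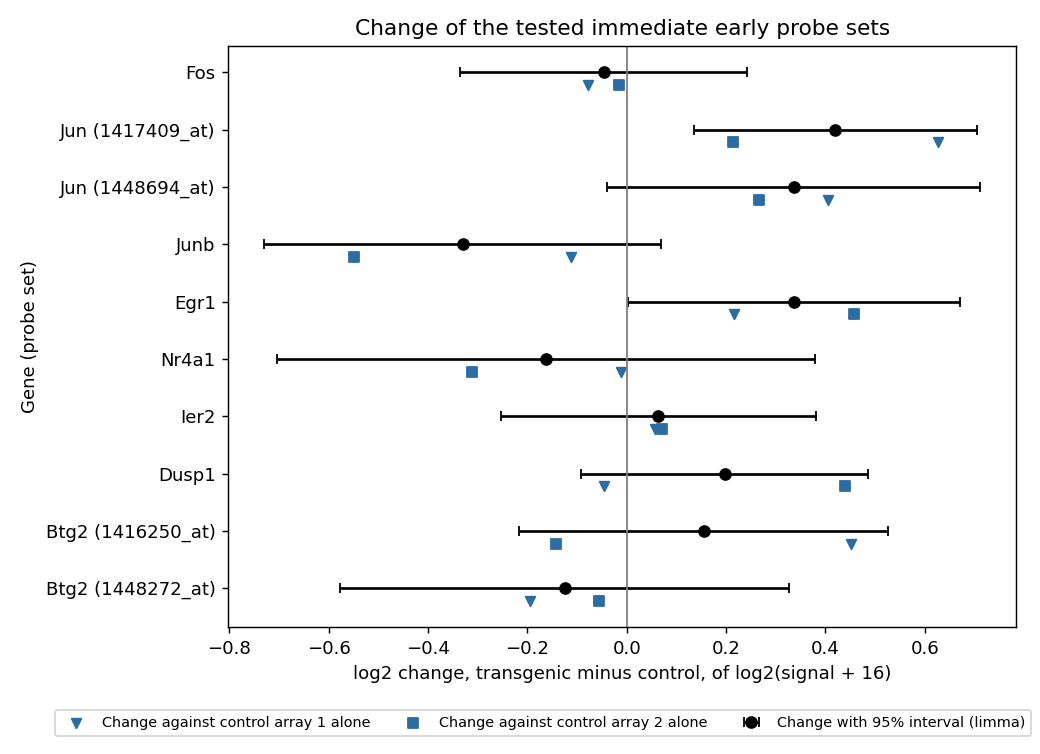
The log2 change of the 10 tested probe sets, transgenic minus control, as black points with 95% limma intervals, and the change against each control array alone as blue triangles (array 1) and squares (array 2). The intervals of Jun (1417409_at) and Egr1 lie above 0 before adjustment, 0 of the 10 passed after it, and the blue points of Dusp1 and Btg2 (1416250_at) fall on both sides of 0.

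The spread within each pair was wider in the control pair, although its arrays are technical replicates. The control arrays differed by more than the transgenic arrays for 7 of the 10 tested probe sets, against 47.4% of all probe sets tested. Over the 8 genes by their brightest probe set, the median absolute log2 difference was 0.10 between the transgenic arrays and 0.36 between the control arrays. Over all 10 probe sets the medians were 0.10 and 0.27. The 13379 tested probe sets whose mean signal lay in the members' range, from 85.6 to 568, had medians of 0.15 between the transgenic arrays and 0.14 between the control arrays. No test was made of this difference, as there is 1 pair of each kind. By brightest probe set, the control pair was wider for 25 of 35 other early response genes and 10 of 15 kinases and promoter factors. The early response genes had medians of 0.12 in the transgenic and 0.14 in the control pair. For the kinases and promoter factors these were 0.06 and 0.12. Neither control median exceeded the 0.14 of the members' signal range. The control pair was wider for 7 of 12 feedback genes, 6 of 11 glucocorticoid-induced genes and 4 of 7 AU-rich decay factors. Of the EGR corepressors, AP-1 inhibitors and BTG relatives, it was wider for 2 of 7.

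The widest differences of the control pair were those of 5 genes. For Btg2 (1416250_at) the log2 difference was 0.08 between the transgenic arrays and 0.59 between the control arrays, and 2.21% of probe sets in that signal range differed by more between the control arrays. For Dusp1 it was 0.09 in the transgenic pair and 0.48 in the control pair, a difference that 4.96% of the range exceeded. Junb had 0.32 and 0.44, Jun (1417409_at) 0.14 and 0.41, and Nr4a1 0.10 and 0.30, in the transgenic and then the control pair. The direction was not shared: Btg2, Junb, Jun and Nr4a1 had higher signals on the second control array, and Dusp1 a lower one. The second probe set of Btg2 (1448272_at) went the other way from the first, with a signal lower by 0.14 on the second control array. Fos differed by 0.14 between the transgenic arrays and by 0.06 between the control arrays, and Ier2 by 0.06 and 0.01. These were among the 3 probe sets whose transgenic pair lay further apart, with the second probe set of Jun (1448694_at), at 0.20 and 0.14.

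**Figure D3:**
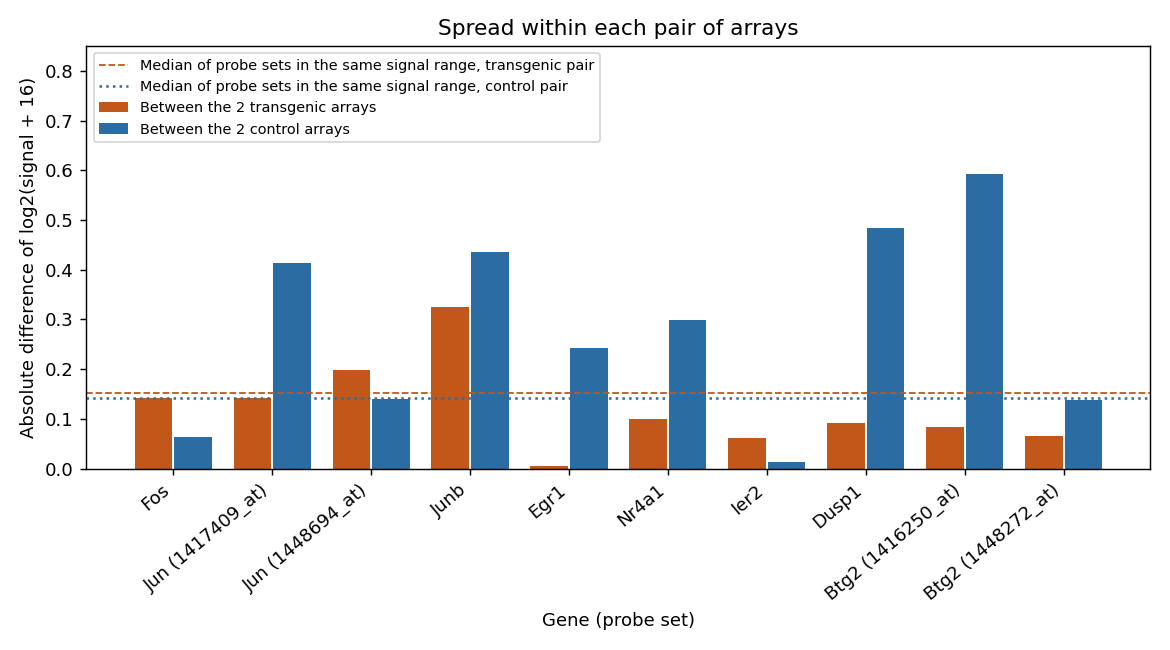
Absolute difference of log2(signal + 16) between the 2 transgenic arrays (orange bars) and between the 2 control arrays (blue bars) for the 10 tested probe sets. Dashed and dotted lines are the medians, 0.15 and 0.14, of the probe sets in the same signal range; 7 of the 10 blue bars are taller than their orange partners, the tallest at 0.59 for Btg2 (1416250_at).

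Other early response genes lay on both sides of 0, and none passed the threshold. Of 40 in that list, 35 were tested and 0 passed in limma. At an unadjusted p under 0.05 there were 5, all lower, against 7.06% of all probe sets tested. Changes were above 0 for 14 and below 0 for 21, with a median of -0.05. Of all 27022 probe sets tested, 14356 were below 0. Ccn2, a matricellular protein and target of SRF and YAP, had signals of 1597 and 1554 on the transgenic arrays, against 2324 and 2168 on the control arrays. The groups were well apart, with a change of -0.51 ± 0.10 (log2, SE; limma adjusted p = 0.217). It did pass after quantile normalization (adjusted p = 0.0339) and with the 4 arrays as separate samples (0.0294). Cebpd, a bZIP factor of acute responses, gave 186 and 219 on the transgenic arrays, against 323 and 316 on the control arrays, and a change of -0.62 ± 0.17. Atf3, a stress factor of the ATF family, gave 48.0 and 47.5 on the transgenic arrays, against 20.4 and 26.0 on the control arrays, a change of 0.71 ± 0.34 at a dim level. Maff, a small Maf protein, had a change of 0.44 ± 0.36. None of these 4 passed in the reported fit.

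Among the genes that drive or restrain the response, none passed the threshold. Of 23 kinases and promoter factors, 15 were tested, 0 passed in limma and 0 had an unadjusted p under 0.05, with a median of -0.05. Elk1, an SRF cofactor, stood at -0.63 ± 0.37 on a dim probe set, the kinase gene Map2k1 at 0.26 ± 0.13, Rps6ka5 at 0.28 ± 0.23 and Crem, a factor of the cyclic AMP response, at 0.24 ± 0.23. Of 12 tested feedback phosphatase and Sprouty genes 0 passed, with a median of -0.07. At an unadjusted p under 0.05 in limma there was 1, against 7.06% of all probe sets tested. That was Spry4, an inhibitor of MAP kinase signalling, with signals of 60.2 and 30.5 on the transgenic arrays, against 101 and 115 on the control arrays, and a change of -1.06 ± 0.34. Dusp5 stood at -0.36 ± 0.23, Dusp2 at 0.33 ± 0.37 and Dusp16 at -0.20 ± 0.16.

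Among EGR corepressors, AP-1 inhibitors and BTG relatives, 0 of 7 passed in limma and 0 had an unadjusted p under 0.05, with a median of -0.06. The 4 with the largest differences were Tob2 at -0.16, Cnot7 at 0.12, Jdp2 at -0.10 and Nab1 at -0.06. Factors that act on the decay of AU-rich mRNAs, the class to which Fos mRNA belongs, had 0 of 7 past the threshold and 0 with an unadjusted p under 0.05. With the control arrays averaged, all 7 were below 0, where 14356 of all 27022 probe sets tested were. Both transgenic arrays lay below both control arrays for 1 of the 7, against 23.6% of all, and 6 overlapped. Elavl1 lay at -0.01, with signals of 588 and 512 on the transgenic arrays, against 612 and 499 on the control arrays. Against control array 1 alone Xrn1 was at 0.44. The median of the 7 was -0.09. The largest changes were those of Khsrp at -0.25, Zfp36l2 at -0.17, Hnrnpd at -0.13 and Xrn1 at -0.09.

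Dusp1 is also induced by glucocorticoids. Of 11 such genes, all tested, 10 were below 0 with the control arrays averaged, where 14356 of all 27022 probe sets tested were. Dusp1 was above, and the median was -0.40. Sgk1, a kinase gene of the same list, lay at -0.01 with overlapping arrays. Its signals were 4955 and 4618 on the transgenic arrays, both above the 4553 of the first control array and below the 5086 of the second. Tsc22d3, the glucocorticoid-induced leucine zipper gene, was the 1 past the threshold, with signals of 631 and 643 on the transgenic arrays, against 1245 and 1350 on the control arrays (limma adjusted p = 0.00732; 0.536 with no filter on dim probe sets). Fkbp5 at -0.68 ± 0.18, Zbtb16 at -0.86 ± 0.27 and the clock gene Per1 at -0.63 ± 0.22 did not pass. In limma, 6 of the 11 had an unadjusted p under 0.05, against 7.06% of all probe sets tested. Against control array 1 alone Dusp1 was at -0.04, so its place above 0 rests on the second control array.

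**Figure D4:**
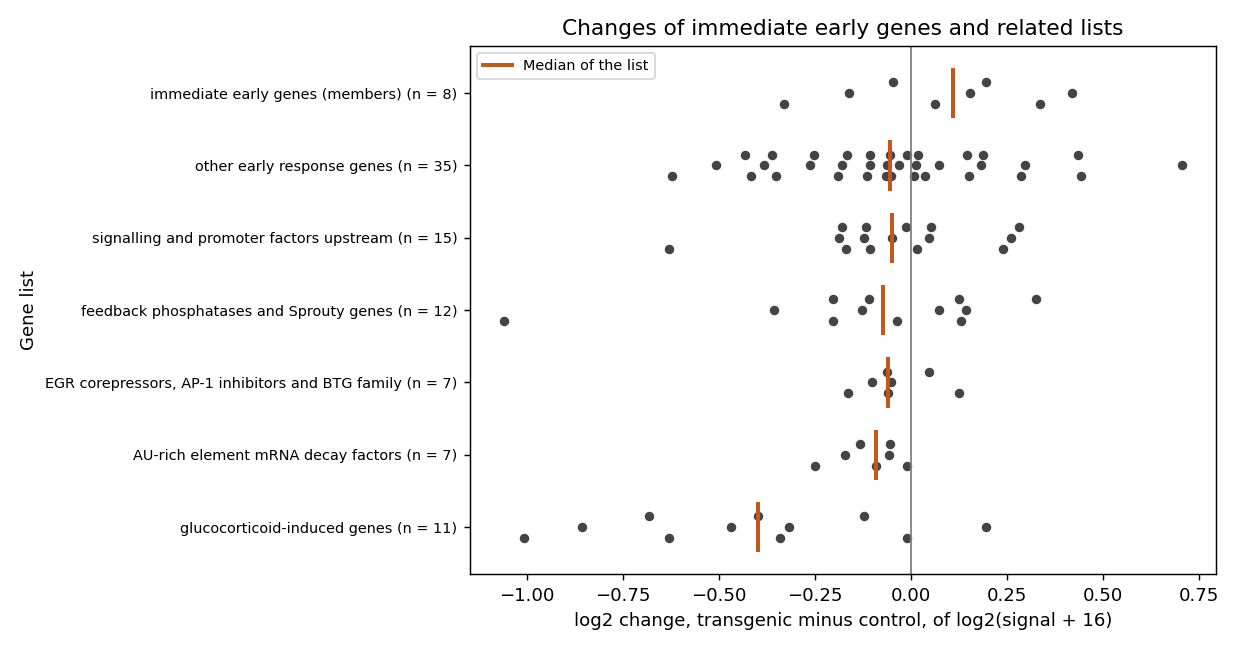
The log2 change, transgenic minus control, of each tested gene (points, 1 probe set a gene) for the 8 immediate early genes and 6 related lists, with the median of each list as an orange bar. The medians lie between -0.09 and 0.11 (that of the immediate early genes 0.022 or 0.027 against a single control array) for all lists but the glucocorticoid-induced genes, at -0.40. In that list Dusp1 is the 1 point above 0 with the control arrays averaged.

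Averaged over the 8 tested members, the profile over the 4 arrays was nearly flat, at 0.04 and 0.04 on the transgenic arrays and -0.10 and 0.02 on the control arrays, in log2 units around each gene's mean. The 5 genes with the most similar profile by root mean square difference over the 4 arrays were Ralgapb, Apex1, Tmem176b, Dsg2 and Dpp8, with differences from 0.0027 to 0.0079. They resemble the average and not any one member, since Btg2 alone ran from -0.37 to 0.22.

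Marker genes went against the label retina. Of 8 rod genes 0 had a mean signal over 150, with sums of 323 and 229 on the transgenic arrays, against 296 and 301 on the control arrays, and Pde6b and Prph2 near 0. All 5 corneal, 8 muscle, 7 pigment and 6 fibroblast genes did exceed 150. Summed muscle signals were 19144 and 18941 on the transgenic arrays, against 11097 and 11445 on the control arrays, with 8 of 8 genes higher on both transgenic arrays. Pigment genes (7 of 7) and fibroblast genes (5 of 6) were also higher on both, and corneal genes for 3 of 5, against 21.1% of all probe sets tested. Rod genes were lower on both for 3 of 8, against 23.6% of all. Of these rod genes, Pde6b and Prph2 were too dim to be tested, and Sag had a limma adjusted p of 0.882. Vascular genes summed to 396 and 412, against 483 and 400.3, and leukocyte genes to 1852 and 1822, against 1685 and 1532, on transgenic and then control arrays. Of the 6 leukocyte genes, 2 were higher and 2 lower on both transgenic arrays, and 4 of the 5 tested were below 0. In bulk tissue, fewer cells of a type and less RNA per cell cannot be told apart, and the part of these shifts in the differences of Jun, Egr1 and Fosb was not tested. The Actb signal ratio of its 3′ to its 5′ probe set, which rises as RNA degrades, was 1.22 and 1.14 on the transgenic arrays, against 1.21 and 1.19 on the control arrays.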

How the data were processed

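The values used are the linear signal intensities deposited by the authors, 1 for each Affymetrix probe set and array; the software and settings behind them, and the genome build, are not given in the sources used here. Deposited values were kept, as the arrays' trimmed means (2% at each end) were equal. The 64 array controls were left out. Probe sets with a mean log2(signal + 16) above the 40th percentile were tested. The control arrays were averaged as 1 sample, and the 2 transgenic arrays were taken as 2 samples. limma 3.58.1 (R 4.3.3) was run with an intensity trend and two-sided tests, with Benjamini-Hochberg adjustment over all probe sets tested. It had 1 residual and 10.3 prior degrees of freedom, and the spread of the control sample was taken from the transgenic ones. The model was tested on simulated data with changes larger than that of any member and with all arrays independent. That test does not show how often changes as small as the members' would be found. The small number of arrays limits the precision. Gene names come from the platform annotation.

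The members, lists and tests were chosen with earlier results of these data known. Named genes are every member, in each related list the 4 genes that changed most in size, any gene there past the threshold, and the 5 most similar profiles. Each list gene is represented by its brightest probe set. The comparison of pair differences with probe sets in the members' signal range was chosen after values were seen. Alternatives were quantile normalization, median centring, pseudocounts of 1 and 64, no filter and the 60th percentile, 4 separate arrays (also with a replicate block), other moderation, and leaving out each array.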

Additional observations from a re-analysis of the deposited data

How the results depend on the processing

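The count of immediate early probe sets past the threshold was 0 in limma in every alternative but the replicate block, where 1 passed, Jun (1417409_at) with an adjusted p of 0.00373; 2 had an unadjusted p under 0.05 in the reported fit and between 0 and 4 in the alternatives. Of the other named genes, Spry4, Zbtb16, Fkbp5, Per1, Cebpd and Ccn2 passed only there, except Ccn2, which also passed in 2 other alternatives (adjusted p from 3e-06 for Ccn2 to 0.0276 for Per1 with the block). The block treats technical replicates as samples and rests on numbers that pair nothing in the labels; the differences between array 1 and array 2 correlated at 0.096 between both pairs over the probe sets tested. Over all probe sets the count of 21 became 39 with quantile normalization (20 higher, 19 lower, against 15 and 6), 56 with median centring (47 and 9), 0 with no filter, 0 with no intensity trend (2181 and 1059 at an unadjusted p under 0.05), 135 with 4 separate arrays and 1740 with the replicate block. It was 14 to 33 with a control array left out. The median change of the 8 genes, 0.11, was 0.0224 to 0.146 with 1 array left out, 0.039 when a gene's probe sets were averaged and 0.176 over 10 genes with no filter. The cause of these shifts was not tested. The medians of the pair spreads and the count below both controls stayed within 1.5 times. With 1 array left out, signs turned for Fos (-0.117 to 0.024), Dusp1 (-0.045 to 0.439), Btg2 on 1416250_at (-0.142 to 0.451), Xrn1 (-0.627 to 0.444, and 0.093 without transgenic array 1), Nab1 (-0.171 to 0.047, and 0.042 without transgenic array 2) and Dusp2 (-0.023 to 0.675). The changes of the other genes in the named set defined above kept their sign. Sgk1 and Elavl1, each at -0.01, are outside that set, and their signs were not followed across the alternatives. Leaving out a transgenic array left no residual degrees of freedom, so those are values with no test. Tsc22d3 did not pass with no filter (adjusted p = 0.536) or no intensity trend (0.905).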
